A study of Mus musculus with 12 samples.

Results

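The replication-dependent histone genes encode the core histones H2A, H2B, H3 and H4 and the linker histone H1 that package newly made DNA. They were taken as the genes of the count table whose symbol starts with Hist1h, Hist2h, Hist3h or Hist4h and whose mean over the 12 libraries was at least 10 counts. Of 24453 genes, 69 had such a symbol and 65 passed: 5 genes for H1, 18 for H2A, 18 for H2B, 12 for H3 and 12 for H4. The Hist1 cluster on chromosome 13 held 51 of them, Hist2 on chromosome 3 held 10, Hist3 on chromosome 11 held 3 and Hist4h4 lay alone on chromosome 6. The 4 genes left out were Hist1h4n, with 0 counts in every library, and Hist1h1t, Hist1h2ba and Hist1h2aa, whose means were 7.33, 0.70 and 0.489 counts. The study took RNA of 4 mouse embryonic fibroblast (MEF) lines, each grown as 3 cultures. TM6 is the parental line, immortalized with SV40 large T antigen, from a C57BL6/J mouse colony with loxP sites in both alleles of Pnpt1 (Pnpt1 fl/fl), the gene of the mitochondrial exoribonuclease PNPase. The rho0 line, which lacks mitochondrial DNA (mtDNA), was a single cell colony of TM6 cells kept for 3 weeks with 750 ng/mL ditercalinium, a drug that depletes mtDNA, and it still carries the floxed alleles. PKO-1 and PKO-6 were single cell colonies of TM6 cells infected with an adenovirus encoding Cre recombinase, which deletes the floxed part of Pnpt1, and the authors found them to have lost mtDNA as well. All 4 lines grew with uridine at 50 µg/mL and were harvested at 70% to 80% confluence. Each derived line is 1 clone, so replicates measure the spread between cultures of that clone, not between independent derivations.

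Histone mRNAs of this kind are made in S phase, when the cell copies its DNA. They end not in a poly(A) tail but in a conserved stem-loop, which SLBP binds and past which the U7 snRNP and the endonuclease CPSF73 cut the transcript. NPAT, a substrate of cyclin E and CDK2, activates the promoters at histone locus bodies in the nucleus. When DNA synthesis stops, SLBP, the helicase UPF1 and uridylating enzymes take part in the decay of the mRNAs. Replacement variants such as H3.3 and H2A.Z are encoded elsewhere, mostly by polyadenylated mRNAs that are made through the whole cycle. The libraries were made from total RNA depleted of ribosomal RNA and not from poly(A) RNA, so mRNAs without a tail were kept.

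The element that sets these mRNAs apart, the 3′ stem-loop, was looked for in mouse GENCODE transcripts of the members as a stem of 6 base pairs that closes a loop of 4 bases. The stem had to start with GG and end with CC and the loop to start with TT, so these letters were fixed by the search. G-T pairs were allowed. That 23 members had no match does not show that they lack a stem-loop. It was found in 42 of the 65 members, in 6 versions, and the RefSeq transcript used for counting ended 4 to 8 bases after it (median 5). An example of each version is shown here with the 5 bases on either side, read 5′ to 3′ as DNA with the stem and loop in capitals.
Hist2h2aa1: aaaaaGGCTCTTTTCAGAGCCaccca
Hist1h3c: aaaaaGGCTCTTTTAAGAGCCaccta
Hist2h2ac: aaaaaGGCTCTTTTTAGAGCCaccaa
Hist1h4d: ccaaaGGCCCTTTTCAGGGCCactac
Hist1h4j: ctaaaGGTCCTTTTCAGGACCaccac
Hist2h4: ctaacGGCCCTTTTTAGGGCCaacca
The 16 capital bases lie, in the same order and in GRCm38, at chr3:96246032-96246047 on the plus strand, chr13:23745047-23745062 on the minus strand, chr3:96220418-96220433 on the minus strand, chr13:23581950-23581965 on the plus strand, chr13:21735437-21735452 on the plus strand and chr3:96262939-96262954 on the minus strand. The version of Hist2h2aa1 was the commonest, in 26 members (3 of H1, 10 of H2A, 8 of H2B and 5 of H3), and that of Hist1h3c was in 5 (2 of H2B and 3 of H3). The version of Hist2h2ac was in that gene alone of the 42. The versions of Hist1h4d, Hist1h4j and Hist2h4 were in 6, 2 and 2 members, and all 10 were H4 genes. So the 10 H4 members in which a stem-loop was found shared none of these versions with members of the other classes.

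Promoter sequences (250 bases before to 50 bases after the RefSeq start, GRCm38.p6) were matched for 58 of the 65 members. The letters CCAAT, searched on both strands, were in 50 of the 58 promoters (86.2%), against 41.1% of the promoters of 27025 genes. All 5 H1, 17 H2A, 15 H2B and 10 H3 promoters held them, but 3 of 11 H4 promoters (27.3%) did. The octamer ATTTGCAT, to which OCT1 binds in H2B promoters, was in 6 of 15 H2B and 6 of 17 H2A promoters, in 0 of the 26 others, and in 1.97% of all promoters. TATAA within 50 bases before the start and on its strand was in 23 of the 58 (39.7%) and in 5.89% of all. The 3 promoters below belong to genes on which results turn, and show 150 bases each, 5′ to 3′ on the strand of the gene, with these letters in capitals (ATTGG and ATGCAAAT are CCAAT and the octamer read on the other strand).
Hist2h2bb: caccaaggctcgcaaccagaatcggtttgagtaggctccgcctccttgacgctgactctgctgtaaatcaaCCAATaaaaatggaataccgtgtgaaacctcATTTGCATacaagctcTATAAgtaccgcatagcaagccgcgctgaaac
Hist3h2a: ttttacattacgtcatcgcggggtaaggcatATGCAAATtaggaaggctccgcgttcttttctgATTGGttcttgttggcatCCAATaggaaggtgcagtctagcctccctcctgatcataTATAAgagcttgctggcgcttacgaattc
Hist4h4: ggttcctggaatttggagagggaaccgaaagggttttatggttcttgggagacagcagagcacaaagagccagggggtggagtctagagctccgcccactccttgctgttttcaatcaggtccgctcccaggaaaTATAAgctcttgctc
They lie at chr3:96269550-96269699 on the plus strand, chr11:58954535-58954684 on the plus strand and chr6:136804432-136804581 on the minus strand. Matches are descriptions of the letters and do not show that a factor binds there.

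Each library held 47164860 to 67991378 counts, of which 12.2% to 19.6% fell on Rn45s, the ribosomal RNA precursor. The 65 members held 1.61 to 1.87% of the counts outside Rn45s in TM6, 1.06 to 1.36% in rho0, 1.47 to 1.65% in PKO-1 and 1.12 to 1.52% in PKO-6. Normalized counts below are counts divided by the library size scaled with edgeR's TMM method, and 56 members had a mean of at least 1000 of them. TPM values, which are scaled to transcript length and to the library, allow levels of different genes to be compared. Pnpt1, the targeted gene, had 2832 to 3319 normalized counts in TM6, 5051 to 5510 in rho0, 1191 to 1276 in PKO-1 and 1720 to 2214 in PKO-6, so each PKO library was below each TM6 and rho0 library. The Cre deletion takes out an exon and not the whole gene, so these counts do not measure the deletion itself. Of 8 fibroblast markers, 7 had a median of 1 TPM or more, while Thy1 was near 0. Their sum was 6622 to 6821 TPM in TM6, 3763 to 3866 in rho0, 6778 to 6940 in PKO-1 and 3022 to 3342 in PKO-6, and the summed epithelial (1.65 to 20.1 TPM), endothelial (0.08 to 0.89) and haematopoietic (2.17 to 6.04) markers were low in every library. The part of these differences in the histone results was not tested.

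Per unit of length, the highest single members were Hist1h4d and Hist1h4m of H4, Hist2h2aa1 of H2A and Hist2h3c2 of H3. Mean levels over the 12 libraries were 3572 TPM for Hist1h4d, 3263 for Hist1h4m and 2341 for Hist1h4c among H4 genes. Hist2h2aa1 (3373 TPM) led the H2A genes ahead of Hist1h2ab (1322) and Hist2h2ac (1092), and Hist2h3c2 (2683 TPM) led the H3 genes ahead of Hist1h3c (1686) and Hist1h3b (1337). Among H2B genes the highest means were 1965 TPM for Hist2h2bb, 1936 for Hist1h2bg and 1450 for Hist1h2bb. The linker genes were lower, led by Hist1h1e (1218 TPM), Hist1h1c (1092) and Hist1h1d (983). The 10 members with most counts held 36.9% of all member counts.

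Summed histone mRNA was lower in rho0 than in TM6, in every class. The sum over the 65 members was 891746, 842790 and 786074 normalized counts in the 3 TM6 libraries and 661440, 483449 and 519246 in the 3 rho0 libraries. Every rho0 library was below every TM6 library, and the means were 840203 ± 52884 and 554711 ± 94147 (SD, n = 3). The log2 ratio of the means was -0.60, against a standard deviation within lines of 0.19 on the same scale. By class the log2 ratio was -0.59 for H1, -0.59 for H2A, -0.58 for H2B, -0.66 for H3 and -0.57 for H4, a narrow range. The library with the highest Rn45s share of its line also had the highest histone sum in TM6 (replicate 1, 17.1%), rho0 (replicate 1, 19.6%) and PKO-6 (replicate 2, 19.2%) but not in PKO-1, and the part of this in the sums was not tested. By cluster the log2 ratio was -0.54 for Hist1 and -0.87 for Hist2. From these bulk counts alone, fewer cells in S phase and less histone mRNA per cell cannot be told apart. By flow cytometry of the same lines, the authors reported a trend to a smaller share of S phase cells in rho0 and PKO than in TM6. The lowest mean share was in PKO-1, and its part in the sums was not tested. The sum does not depend on how reads were divided between near-identical genes. Chromosome medians were not taken off the sum. No alternative that was tried on the sum over all 65 members moved its log2 ratio, in any of the 4 comparisons, by more than the spread between replicates. That spread, 0.19, is a wide limit for the comparisons other than rho0 against TM6, whose ratios were 0.26 to 0.31 in size.

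**Figure D1:**
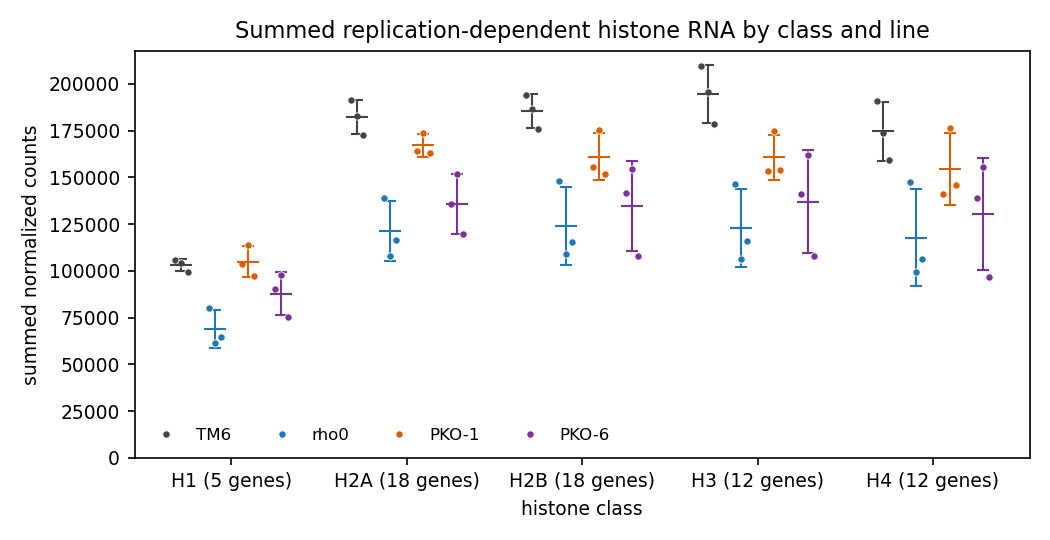
Summed normalized counts of the members of each histone class (H1, H2A, H2B, H3 and H4), with a point for each of the 3 libraries of TM6, rho0, PKO-1 and PKO-6 and a line with bars for each mean ± SD. In all 5 classes the 3 rho0 libraries sit below the 3 TM6 libraries, and PKO-6 has a lower mean than PKO-1.

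Gene by gene, 24 of the 65 members fell in rho0 relative to TM6 and 0 rose, while 15.6% of all 14026 tested genes fell and 13.7% rose. A gene counted as called when edgeR's quasi-likelihood test gave it a Benjamini-Hochberg adjusted p, over all tested genes, under 0.01 and its log2 fold change was over 0.5 in size. The called members were 1 of 5 H1 genes, 8 of 18 H2A, 7 of 18 H2B, 4 of 12 H3 and 4 of 12 H4 genes, and all 24 were among the 56 abundant members, those averaging 1000 normalized counts or more. The median log2 fold change was -0.56 over the members and 0.02 over all tested genes, and 61 of 65 members were below 0. At an unadjusted p under 0.05, 0 members were higher and 48 lower, and DESeq2's Wald test called 0 higher and 31 lower. The edgeR calls rest on 1 spread over the 3 groups, which includes the difference between the PKO clones. With the 4 lines fitted separately, 34 members were lower and 0 higher. In 50 members every rho0 library was below every TM6 library, which held for 37.0% of all tested genes. The count of called members was 4 without rho0 replicate 2, 5 without rho0 replicate 3, 6 without TM6 replicate 2, 7 without TM6 replicate 1 and 14 without TM6 replicate 3, with 0 rising in each case, and the member median lay between -0.72 and -0.50 over the 12 such fits.

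The largest called falls in rho0 were in an H2B, an H3 and an H4 gene. Hist2h2bb was at 27472, 27942 and 26791 normalized counts in TM6 but at 15348, 11898 and 12286 in rho0. The groups did not overlap (log2 fold change -1.06 ± 0.29 (SE), adjusted p = 0.00948 by edgeR). That call was lost when any 1 of the TM6 or rho0 libraries, or PKO-1 replicate 3, was left out, with adjusted p of up to 0.0357. Hist2h3c2, the leading H3 gene, had 63040, 58611 and 52556 in TM6 and 34114, 24214 and 27255 in rho0, again without overlap (log2 fold change -1.03 ± 0.24 (SE), adjusted p = 0.00419 by edgeR). Hist1h4j had 9046, 7528 and 6601 in TM6 and 4931, 3090 and 3388 in rho0, with every rho0 library lower (log2 fold change -1.02 ± 0.24 (SE), adjusted p = 0.00442 by edgeR). The other 21 called members fell by 0.93 (Hist1h4b) to 0.52 (Hist1h2bn) on the log2 scale. The calls of Hist2h3c2 and Hist1h4j were lost without TM6 replicate 1 or 2 or rho0 replicate 2 or 3, with adjusted p of up to 0.0198 and 0.0200. Among the most abundant members, Hist2h2aa1 fell from 49643 ± 2083 to 29755 ± 3606 (SD, n = 3; log2 fold change -0.74, edgeR adjusted p = 0.00437) and Hist1h1e, a linker histone, from 31037 ± 1085 to 19977 ± 2885 (log2 fold change -0.64, edgeR adjusted p = 0.00366).

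Not every abundant member was called lower in rho0, although 55 of the 56 were below 0. Hist1h4d, the H4 gene with the highest level per length, was at 29317, 27136 and 24841 normalized counts in TM6 against 26008, 17860 and 19264 in rho0, a difference that was not called (log2 fold change -0.36 ± 0.18 (SE), adjusted p = 0.115 by edgeR). Hist1h2bg, the second of the H2B genes, had 19763, 19561 and 19203 in TM6 and 20560, 16098 and 17330 in rho0. Its libraries overlapped between the lines (log2 fold change -0.12 ± 0.11 (SE), adjusted p = 0.382 by edgeR). The 4 members above 0 were Hist2h2aa2, Hist2h3c1, Hist2h2ab and Hist1h2af, at log2 fold changes of 0.81, 0.16, 0.10 and 0.05, and none of the 4 was called (chosen for mention after their values were seen). Of these, Hist1h2af alone was among the abundant members. H2A and H2B genes with the octamer in their promoter (12 genes) and without it (20 genes) had median log2 fold changes of -0.57 and -0.53.

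In the PNPase knockout lines, the mean of the summed histone mRNA of each clone lay between the means of TM6 and rho0. The sum was 717790, 814185 and 712095 normalized counts in the PKO-1 libraries and 647739, 721455 and 508021 in the PKO-6 libraries. PKO-1 overlapped TM6 (748023 ± 57368 against 840203 ± 52884, SD, n = 3), while every PKO-6 library was below every TM6 library (mean 625738 ± 108404). Every PKO-1 library was above every rho0 library, while PKO-6 overlapped rho0. The log2 ratio to TM6 was -0.29 for the pooled clones, -0.17 for PKO-1 and -0.43 for PKO-6. By class it was -0.10 for H1, -0.27 for H2A, -0.33 for H2B, -0.39 for H3 and -0.29 for H4 with the clones pooled.

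With both clones pooled, 2 of 65 members rose and 2 fell against TM6, while 13.5% of all tested genes rose and 12.2% fell. The member median was -0.26 on the log2 scale (-0.17 without PKO-6 replicate 3), and that of all tested genes was 0.03. Fitted as separate lines, PKO-1 had 5 members higher and 1 lower than TM6 (16.4% and 17.9% of all tested genes), with a median of -0.20. PKO-6 had 2 higher and 20 lower (21.9% and 19.4% of all), with a median of -0.40. The 20 were 3 of 5 H1 genes, 6 of 18 H2A, 5 of 18 H2B, 3 of 12 H3 and 3 of 12 H4 genes, and 18 of them lie in the Hist1 cluster. The pooled fit treats the difference between the clones as spread: its biological coefficient of variation was 0.248, against 0.0837 with the 4 lines fitted separately. The split of the pooled calls depended on the scaling, with 2 higher and 6 lower under DESeq2's size factors and 2 higher and 7 lower without Rn45s. The pooled count was 2 without TM6 replicate 1, 7 without rho0 replicate 2, rho0 replicate 3 or PKO-6 replicate 2, 9 without PKO-1 replicate 2 and 10 without rho0 replicate 1. The rho0 and PKO comparisons share the TM6 libraries.

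**Figure D2:**
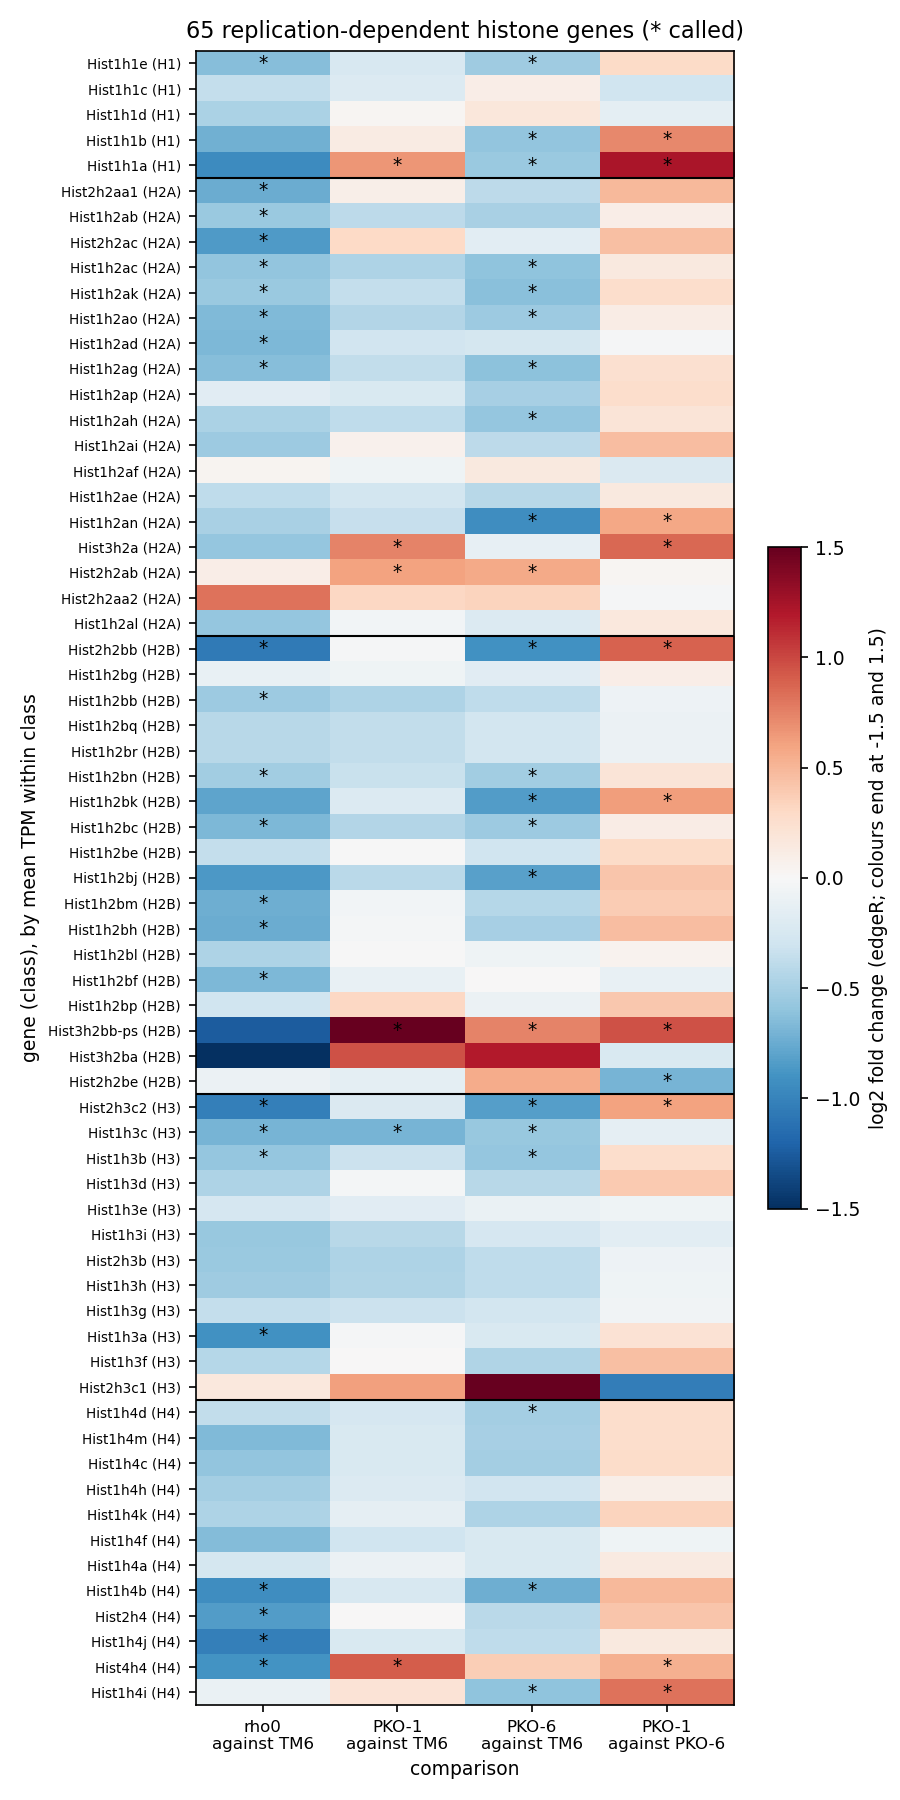
Heat map of the log2 fold changes of the 65 members (1 row a gene, by histone class and then by TPM) in 4 comparisons given as columns, with blue for lower, red for higher and an asterisk on called genes. The column medians are -0.56 for rho0, -0.20 for PKO-1 and -0.40 for PKO-6 against TM6, and 0.19 for PKO-1 against PKO-6.

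The 4 genes called in the pooled comparison were an H2B pseudogene, a pair of H2A genes and an H3 gene. Hist3h2bb-ps, named as a pseudogene, was at 67.9, 66.7 and 90.6 normalized counts in TM6, 244, 289 and 203 in PKO-1 and 132, 146 and 101 in PKO-6. Each of these 6 PKO libraries was above all 3 TM6 libraries (log2 fold change 1.30 ± 0.33 (SE), adjusted p = 0.00627 by edgeR). The call was lost without any 1 of the TM6 libraries, rho0 replicate 2 or 3, or PKO-1 replicate 1 or 3 (adjusted p of up to 0.0352). Hist2h2ab had 528, 559 and 509.6 in TM6, 763, 858 and 798 in PKO-1 and 773, 961 and 637 in PKO-6. All 6 PKO libraries were above TM6 (log2 fold change 0.58 ± 0.12 (SE), adjusted p = 0.00207 by edgeR). It was not called without TM6 replicate 1 or 3 or PKO-6 replicate 2. Hist1h3c, which encodes H3, had 24736, 23492 and 21581 in TM6, 13991, 15418 and 13603 in PKO-1 and 16328, 18524 and 12288 in PKO-6, and all 6 PKO libraries were below TM6. Its fall was called in the pooled fit (log2 fold change -0.63 ± 0.13 (SE), adjusted p = 0.00187 by edgeR), in each clone fitted as its own line, and without any 1 library. Hist1h2ac had 13315, 12847 and 11952 in TM6, 9102, 9429 and 9048 in PKO-1 and 8698, 9238 and 7062 in PKO-6, of which PKO-6 replicate 3 was the lowest (log2 fold change -0.54 ± 0.10 (SE), adjusted p = 0.000980 by edgeR). Without that library Hist1h2ac was not called.

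PKO and rho0 MEFs both lack mtDNA, and PKO MEFs lack PNPase as well. They also differ in ditercalinium treatment, in infection with the Cre adenovirus and as separate clones. Their direct comparison asks what differed beyond the shared loss, and in it the parts of PNPase loss, drug, virus and clone cannot be told apart. Here 7 of 65 members were higher in PKO and 0 lower, while 6.33% of all tested genes were higher and 4.36% lower. The member median was 0.26 on the log2 scale (0.16 without rho0 replicate 2), against 0.02 over all tested genes. At an unadjusted p under 0.05, 22 members were higher and 0 lower, and DESeq2's Wald test called 12 higher and 0 lower. The log2 ratio of the summed counts was 0.31, and of the 4 clusters it was 0.24 for Hist1, 0.58 for Hist2, 1.00 for Hist3 and 1.56 for Hist4. The count was 4 without rho0 replicate 2 and 17 without PKO-6 replicate 3.

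Of the 7, 3 lie outside the Hist1 and Hist2 clusters and are described with their neighbours below. Hist2h2ac, an H2A gene, had 7115, 5627 and 6293 normalized counts in rho0, 14228, 14419 and 13538 in PKO-1 and 9844, 11290 and 9616 in PKO-6. All 3 rho0 libraries were the lowest (log2 fold change 0.94 ± 0.14 (SE), adjusted p = 0.000695 by edgeR), and the call held without any 1 library. In TM6 the gene had 11342, 11503 and 11360, and its log2 fold change against TM6 was -0.85 in rho0 and 0.09 in PKO. The remaining 3 were Hist1h3a, Hist1h2bf and the linker gene Hist1h1d, with log2 fold changes of 0.78, 0.63 and 0.58 (edgeR adjusted p = 0.00147, 0.00225 and 0.00100). Their means were 4558, 1826 and 14677 normalized counts in rho0 and 7840, 2826 and 21958 in PKO.

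The 2 knockout clones differed from each other in some members, though in a smaller share of them than of all tested genes, of which 29.1% were called. In PKO-1 against PKO-6, 10 of 65 members were higher and 1 lower, while 11.5% of all tested genes were higher and 17.6% lower. The member median was 0.19 on the log2 scale, against -0.01 over all tested genes, and it was 0.07 without PKO-6 replicate 3 and 0.34 without PKO-6 replicate 2. Hist1h1a, a linker histone gene, differed most. It had 19813, 21536 and 18094 normalized counts in PKO-1 and 8792, 9317 and 7294 in PKO-6. PKO-1 and PKO-6 did not overlap (log2 fold change 1.23 ± 0.10 (SE), adjusted p = 1.64e-07 by edgeR). TM6, with 12658, 12522 and 12246, lay between them, and rho0 had 7401, 5895 and 6130. Hist1h1b, another linker gene, was also higher in PKO-1 (log2 fold change 0.72, edgeR adjusted p = 5.17e-06). Hist2h2bb had 27025, 29210 and 24718 in PKO-1 and 15011, 16485 and 12468 in PKO-6 (log2 fold change 0.88 ± 0.11 (SE), adjusted p = 9.51e-06 by edgeR), and PKO-1 overlapped TM6 while every PKO-6 library was below every TM6 library. The other called members were Hist3h2bb-ps and Hist3h2a, described below, and Hist1h4i (0.81), Hist1h2bk (0.63), Hist2h3c2 (0.60), Hist1h2an (0.58), Hist4h4 (0.54) and Hist2h2be (-0.70). Without PKO-6 replicate 2, 18 members were called between the clones (17 higher and 1 lower). The Rn45s share of that library was 19.2%, the highest of the PKO libraries, and its part in the count was not tested.

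The linker histone genes did not all differ alike between the clones. As shares of the summed TPM of the 5 H1 genes, Hist1h1a held 19.8, 19.6 and 19.2% in PKO-1 and 10.0, 9.82 and 10.00% in PKO-6. It held 12.4, 12.5 and 12.8% in TM6 and 9.50, 9.97 and 9.81% in rho0, so PKO-1 stood above the other 3 lines. Hist1h1c held 19.2 ± 0.328% (SD, n = 3) in PKO-1 and 28.0 ± 2.07% in PKO-6, against 22.5 ± 0.728% in TM6. Hist1h1d held 19.5 ± 0.432% and 25.7 ± 1.07% in the clones and 19.5 ± 0.226% in TM6. Hist1h1e was 29.2 ± 0.198% in TM6, 24.2 ± 0.873% in PKO-1 and 23.7 ± 0.372% in PKO-6. Shares of a fixed total are not independent of each other, and they were not tested.

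**Figure D3:**
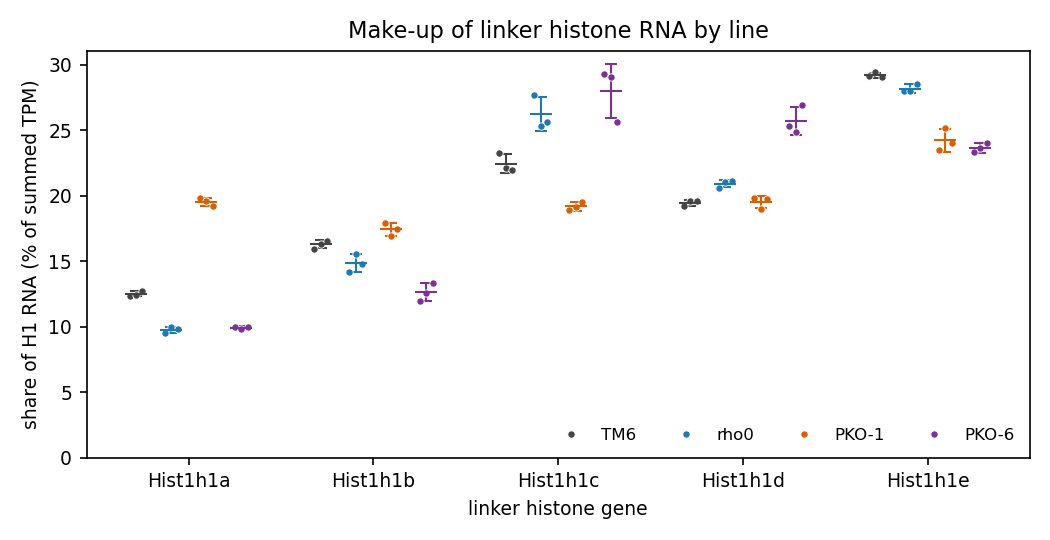
Share of the summed TPM of the 5 linker histone genes held by each gene, in percent, with a point for each library of TM6, rho0, PKO-1 and PKO-6 and bars for each mean ± SD. Hist1h1a holds a mean of 19.6% in PKO-1 and 9.94% in PKO-6.

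All 4 members outside the Hist1 and Hist2 clusters had their lowest mean in rho0, and in PKO-1 all 4 had a higher mean than in TM6. Hist4h4, which encodes H4, was at 2791, 2725 and 2518 normalized counts in TM6 but at 1763, 1275 and 1286 in rho0, and it had 4532, 5798 and 4742 in PKO-1 and 3563, 4216 and 2603 in PKO-6. Every rho0 library was below every TM6 library, and every PKO library was above every rho0 library. It fell in rho0 against TM6 (log2 fold change -0.89, edgeR adjusted p = 0.00837) and was higher in PKO than in rho0 (log2 fold change 1.56 ± 0.22 (SE), adjusted p = 0.000396 by edgeR), a call that held without any 1 library. Against TM6 it was higher in PKO-1 (log2 fold change 0.91, edgeR adjusted p = 0.000186) but was not called in PKO-6 (0.37, adjusted p = 0.0506). Its promoter, printed above, holds TATAA but neither CCAAT nor the octamer in the stretch shown.

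In the Hist3 cluster, Hist3h2bb-ps had 37.4, 27.4 and 29.0 normalized counts in rho0, below the other 3 lines. It was higher in PKO than in rho0 (log2 fold change 2.55 ± 0.36 (SE), adjusted p = 0.000374 by edgeR) and in PKO-1 than in PKO-6 (log2 fold change 0.96 ± 0.18 (SE), adjusted p = 0.000360 by edgeR), and both calls held without any 1 library. Its neighbour Hist3h2a, an H2A gene that starts 172 bases away on the other strand, had 3130, 3189 and 3180 in TM6, 2376, 1938 and 2060 in rho0, 5321, 5733 and 4808 in PKO-1 and 3010, 3004 and 2685 in PKO-6. PKO-1 was higher than the other lines and rho0 lower. Hist3h2a was called between the clones (log2 fold change 0.87 ± 0.08 (SE), adjusted p = 5.14e-07 by edgeR). Hist3h2ba, the member with the lowest mean, had 37.6, 13.5 and 22.1 in TM6, 8.10, 9.14 and 1.12 in rho0, 56.5, 39.8 and 47.3 in PKO-1 and 69.9, 55.5 and 40.7 in PKO-6. It was called higher in PKO than in rho0 (log2 fold change 3.09 ± 0.52 (SE), adjusted p = 0.00122 by edgeR), from counts of 10 or fewer in each rho0 library.

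**Figure D4:**
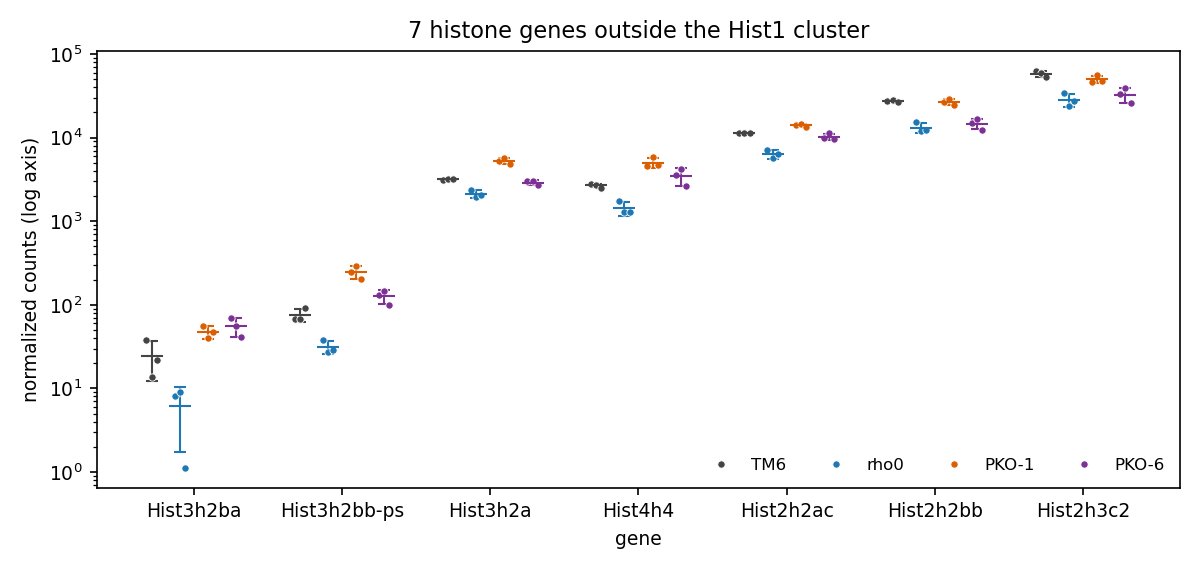
Normalized counts, on a log axis, of the 4 members outside the Hist1 and Hist2 clusters and of Hist2h2ac, Hist2h2bb and Hist2h3c2, with a point for each of the 12 libraries and bars for each line's mean ± SD. In each of the 7 genes rho0 has the lowest mean, and Hist4h4 has a mean of 5024 in PKO-1 against 1442 in rho0.

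Many H2A and H2B genes stand head to head, sharing the stretch between their starts. The table of members gave 14 such pairs on opposite strands, with starts 167 to 280 bases apart and genes placed at more than 1 position counted at each. Hist1h2bf and Hist1h2ad, 190 bases apart, had log2 fold changes in rho0 against TM6 of -0.68 and -0.68. Hist2h2ac and Hist2h2be, 191 bases apart, had -0.85 and -0.09 in rho0 against TM6 and 0.46 and -0.70 in PKO-1 against PKO-6. Hist2h2be, counted on a transcript of 2667 bases, was the member called lower in PKO-1, with 134, 117 and 186 normalized counts in PKO-1 and 239, 186 and 286 in PKO-6. That call (log2 fold change -0.70 ± 0.21 (SE), adjusted p = 0.00968 by edgeR) was lost without TM6 replicate 1 or 3, rho0 replicate 2 or 3, PKO-1 replicate 1 or 2 or PKO-6 replicate 1 or 3 (adjusted p of up to 0.0518). Single genes are uncertain where copies are near-identical, since RSEM divides shared reads between them. Hist1h2bq and Hist1h2br had the same values in every library, Hist2h2aa1 and Hist2h3c2 held nearly all counts of their pairs with Hist2h2aa2 and Hist2h3c1, and Hist1h2ao and Hist1h2ap were each placed at more than 1 position.

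Some histone genes also make a spliced, longer transcript, and that of Hist1h2bc, an H2B gene, differed between the clones. The files count 2 forms of it. The short form is 1 exon of 469 bases (chr13:23684199-23684667 on the plus strand, mm10). The long form of 728 bases joins an exon that stops 46 bases before the end of the short form, 9 bases past the coding sequence, to a second exon at chr13:23692176-23692480. The long form had 187, 154 and 150.2 normalized counts in PKO-1 and 817, 832 and 912 in PKO-6, with 270.4, 319.8 and 319.9 in TM6 and 374, 391 and 383 in rho0. Every PKO-6 library was above, and every PKO-1 library below, all libraries of the other lines. The short form had 9439, 11124 and 9663 in PKO-1 and 9322, 10266 and 6581 in PKO-6, which overlapped. In PKO-1 against PKO-6 the log2 fold change was -2.38 ± 0.11 (SE) for the long form (edgeR adjusted p = 7.44e-08) and 0.21 ± 0.17 for the short form (edgeR adjusted p = 0.367). Relative to the gene, the log2 fold change of the long form was -2.48 (edgeR's diffSpliceDGE, adjusted p = 0.000998), and the adjusted p was 0.00108 to 0.00810 without each clone library in turn. Of the 10131 transcripts tested, 1.64% moved apart from their gene in this comparison, against 1.10% in rho0 against TM6, 0.908% in PKO against TM6 and 0.494% in PKO against rho0. In those 3 comparisons the adjusted p of the long form relative to its gene was 0.746, 0.453 and 1.00. Those 3 comparisons come from the fit with the clones pooled, which counts the difference between the clones as spread. The standard error of the long form's log2 fold change was 0.69, 0.61 and 0.60 there, against 0.11 between the clones. So they can hardly show a change of this form, although every rho0 library was above every TM6 library. This gene was chosen for mention after its values were seen.

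**Figure D5:**
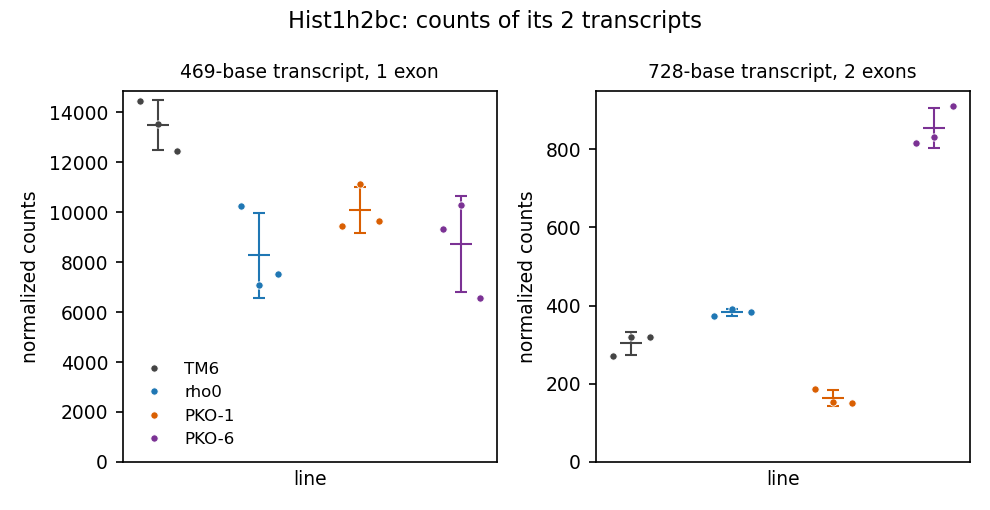
Normalized counts of the short (469 bases) and long (728 bases) transcripts of Hist1h2bc, with a point for each of the 12 libraries and bars for each line's mean ± SD. The long form lies between 817 and 912 in PKO-6 and between 150.2 and 187 in PKO-1, while the short form overlaps.

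Of the 24 genes that transcribe, cut, translate or degrade histone mRNAs, 5 rose and 2 fell in rho0 against TM6 (13.7% and 15.6% of all tested genes), and 3 rose and 3 fell in PKO against TM6 (13.5% and 12.2% of all). Zcchc11, a terminal uridylyltransferase (TUT4), was at 1470, 1583 and 1672 normalized counts in TM6 but at 4617, 4970 and 4987 in rho0. It rose without overlap (log2 fold change 1.62 ± 0.13 (SE), adjusted p = 2.36e-06 by edgeR), and its log2 fold change in PKO against TM6, which uses the same TM6 libraries, was 1.30. Cpsf3, which encodes the endonuclease CPSF73, rose by 0.70 in rho0 and 0.86 in PKO on the log2 scale, and Cpsf2, another subunit of the cleavage complex, was called higher in both. Cdk2, the kinase of cyclin E, had log2 fold changes of -0.66 in rho0 and -0.81 in PKO, and Upf1 had -0.66 in rho0. The Upf1 call was lost without any 1 of the TM6 libraries or any 1 of the rho0 libraries (adjusted p of up to 0.0201). Npat had 3676 to 4291 normalized counts in TM6, 3767 to 4264 in rho0, 3416 to 3757 in PKO-1 and 3663 to 4441 in PKO-6, and was called in no comparison. Slbp had 6104, 6761 and 6641 in TM6, 4954, 4529 and 4535 in rho0, 8477, 8297 and 7637 in PKO-1 and 4963, 5045 and 5153 in PKO-6. All rho0 libraries were below TM6 without a call (log2 fold change -0.48 ± 0.21 (SE), adjusted p = 0.0809 by edgeR), and PKO-1 was higher than PKO-6 (log2 fold change 0.69 ± 0.06 (SE), adjusted p = 2.44e-07 by edgeR). In PKO-1 against PKO-6, 1 gene of this list was higher and 2 were lower (11.5% and 17.6% of all tested genes), Hinfp (-0.59), an activator of H4 genes, and Zcchc6 (-0.52), whose change was -0.47 at its smallest, under the fold limit, without PKO-1 replicate 2 or PKO-6 replicate 3. In PKO against rho0, 0 were called in either direction by edgeR or by DESeq2's Wald test, with 5 higher and 5 lower at an unadjusted p under 0.05.

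Of 21 S phase genes, 1 rose and 4 fell in rho0 against TM6 (13.7% and 15.6% of all tested genes), with a median log2 fold change of -0.32. The falls included Ccna2 (cyclin A2, -1.02), Rrm2 (ribonucleotide reductase, -0.86) and Mcm5 (replicative helicase, -0.72). The Ccna2 call was lost without TM6 replicate 2 or 3 or rho0 replicate 2, and those of Rrm2 and Mcm5 without any 1 of the TM6 libraries or any 1 of the rho0 libraries, with adjusted p of up to 0.0119, 0.0277 and 0.0269. In PKO against TM6, 0 rose and 4 fell (13.5% and 12.2% of all tested genes, list median -0.24), led by Mcm5, followed by Pola1 (-0.90), which encodes DNA polymerase alpha, and Gins2 (-0.81), whose call was lost without any 1 of the TM6 libraries (adjusted p of up to 0.0191). At an unadjusted p under 0.05, 1 was higher and 9 lower there, and DESeq2's Wald test called 0 higher and 5 lower. In PKO-1 against PKO-6, 9 were higher and 0 lower (11.5% and 17.6% of all tested genes, list median 0.36, with 15 higher and 1 lower at an unadjusted p under 0.05 and 8 and 0 by DESeq2's Wald test), led by Tk1 (0.92), Gins2 (0.73) and Rrm2 (0.72). S phase genes and histone members thus both had more higher than lower calls in this comparison, and the part of the former in the histone result was not tested. Of 13 histone chaperones, Chaf1b, a subunit of CAF-1, was the gene called lower in rho0 (-0.50) and in PKO (-0.51) against TM6, at -0.48 without rho0 replicate 2 and -0.50 without PKO-6 replicate 3, both just under the fold limit, and Asf1b (0.87) was higher in PKO-1 than in PKO-6. Comparing PKO with rho0, where 6.33% of all tested genes were higher and 4.36% lower, edgeR called 0 S phase genes and 0 chaperones, with 5 higher and 3 lower S phase genes and 1 higher and 1 lower chaperone at an unadjusted p under 0.05, and DESeq2's Wald test called 3 S phase genes higher and 0 chaperones.

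Of 11 replacement variants, 2 fell in rho0 against TM6, where 15.6% of all tested genes fell: H1f0, the linker variant of resting cells, was at 11692, 12168 and 11567 normalized counts in TM6 but at 4859, 4080 and 4225 in rho0 (log2 fold change -1.43 ± 0.11 (SE), adjusted p = 1.55e-06 by edgeR), and Cenpa, the centromeric H3, had a log2 fold change of -0.93, a call lost without rho0 replicate 2 or 3 (adjusted p of up to 0.0120). In PKO against TM6, 1 variant, H3f3b, which encodes H3.3, rose (0.64), as did 13.5% of all tested genes. In PKO against rho0, H1f0 (1.05), Cenpa (0.77) and H2afv (0.59) were higher (6.33% of all tested genes), and the Cenpa call was lost without any 1 of the TM6, rho0 and PKO-1 libraries (adjusted p of up to 0.0450). Between the clones, H1fx had 3190, 3816 and 3660 in PKO-1 and 784, 1003 and 623 in PKO-6 (log2 fold change 2.15 ± 0.15 (SE), adjusted p = 3.56e-08 by edgeR), and H2afy2, which encodes macroH2A2, had 684, 678 and 692 in PKO-1 and 1820, 1920 and 1788 in PKO-6 (log2 fold change -1.43 ± 0.05 (SE), adjusted p = 6.54e-11 by edgeR). Cenpa (0.61) was higher in PKO-1 and H2afy lower, so 2 variants were higher and 2 lower (11.5% and 17.6% of all tested genes).

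Other genes around the Hist1 cluster had medians of the opposite sign to those of its members in rho0 against TM6 and between the clones. Of 21 tested genes within 1 Mb of the cluster on chromosome 13 that are not members, 6 were higher and 0 lower in rho0 against TM6, with a median log2 fold change of 0.56, against -0.55 for the 51 Hist1 members. In PKO-1 against PKO-6, 1 was higher and 14 lower (median -0.85), and the median of all 507 tested genes of the chromosome was -0.46, against 0.19 for the Hist1 members. With each gene's chromosome median taken off, the median of the 65 members between the clones was 0.60 instead of 0.19. Against TM6 it was then 0.06 instead of -0.20 in PKO-1, -0.54 instead of -0.40 in PKO-6 and -0.65 instead of -0.56 in rho0. So the member median of PKO-1 was not below 0 on that scale. Copy number of the chromosome was not tested.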

How the data were processed

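Expected counts were deposited per transcript and, collapsed, per gene. Per the labels and methods, the authors made stranded libraries from 1 µg of total RNA depleted of ribosomal RNA, merged technical duplicates, and estimated these expected counts with RSEM 1.2.25 and Bowtie2 on RefSeq transcripts of mm10 (GRCm38). The authors also deposited TPM per transcript, summed here per gene. The members and gene lists were chosen with earlier results of these data known. Counts were rounded, and filterByExpr (minimum count 10) kept 14026 of 24453 genes, including all 65 members. edgeR 4.0.16 (R 4.3.3) scaled libraries by TMM and ran its quasi-likelihood test over 12 libraries in 3 groups (PKO clones pooled) or, for single clones, 4 lines. Calls needed a Benjamini-Hochberg adjusted p below 0.01 over all tested genes and an absolute log2 fold change above 0.5. The standard error is the log2 fold change divided by the square root of F. DESeq2 1.42.0 (Wald test) was an alternative. Transcript forms (diffSpliceDGE) were added later, with the data in view. The tests were tried on simulated counts with known changes. The simulated spread was smaller than that of the fit with the PKO clones pooled, so the trial does not show how that fit performs here. With 47164860 counts or more per library, 4 members had means under 100 normalized counts and are the least precise.

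Named genes are the 3 members of each class with the highest TPM, the 3 largest called changes in each direction and comparison among members averaging 100 normalized counts or more, all members outside Hist1 and Hist2, the 3 largest called changes of each list, Slbp, Npat and Pnpt1. Any other member named was chosen after its values were seen. Replicates are cultures of the same line, so with the lines fitted separately p-values measure spread between cultures. In the fit with the PKO clones pooled, the spread also includes the difference between the clones. Alternatives were other scalings, filters, thresholds, fits and the omission of each library.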

Additional observations from a re-analysis of the deposited data

Results flagged for a closer look

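The effects of the 2 PKO clones against TM6 differed in 11 of the 65 members, each past the thresholds when PKO-1 was tested against PKO-6. That is a smaller share than over all tested genes, of which 29.1% were called. The log2 fold changes were Hist1h1a 1.23, Hist3h2bb-ps 0.96, Hist2h2bb 0.88, Hist3h2a 0.87, Hist1h4i 0.81, Hist1h1b 0.72, Hist1h2bk 0.63, Hist2h3c2 0.60, Hist1h2an 0.58, Hist4h4 0.54 and Hist2h2be -0.70. Hist2h2be is the member of these 11 that was lower in PKO-1, and its call did not hold without 1 or another of 8 libraries. The long transcript of Hist1h2bc differed between the clones by -2.38 on the log2 scale.

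The effects of rho0 and PKO against TM6 differed in 7 of the 65 members when PKO was tested against rho0. That is about the same share as over all tested genes, of which 10.7% were called in either direction. The log2 fold changes were Hist3h2ba 3.09, Hist3h2bb-ps 2.55, Hist4h4 1.56, Hist2h2ac 0.94, Hist1h3a 0.78, Hist1h2bf 0.63 and Hist1h1d 0.58. That of Hist3h2ba rests on few counts.

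In Hist1h2ac, 1 of the 6 PKO libraries, PKO-6 replicate 3, lay apart from the rest: its gap to the next library was 0.691 of the whole range, above Dixon's critical value for 6 samples. Chance passes that value in about 1 of 20 series, and 1 of the 34 series examined passed it.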

How the results depend on the processing

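Counts of called members depended on single libraries and on how the clones were fitted. Chromosome medians were not taken off the sum over all members. Taking them off moved the member median between the clones from 0.19 to 0.60. In the alternatives that were tried on the sum, its log2 ratios did not move by more than the spread between replicates. That spread, 0.19, is a wide limit beside ratios of 0.26 to 0.31 in size. The ratio between the clones was 0.26, and 0.13 without PKO-6 replicate 3. For PKO against TM6 it was -0.17 with PKO-1 alone and -0.43 with PKO-6 alone. Without each library in turn the counts ranged over 4 to 33 for rho0 against TM6 (24 in the main analysis), 2 to 10 for PKO against TM6 (4), 4 to 17 for PKO against rho0 (7) and 8 to 18 for PKO-1 against PKO-6 (11). For PKO against TM6 the count was 8 with DESeq2's size factors, 8 with DESeq2's Wald test, 7 with no filter, 9 with the 4 lines fitted separately, 22 with PKO-6 alone, 9 without Rn45s and 9 at the adjusted p alone. For PKO against rho0 it was 12 with DESeq2's Wald test, 14 with 4 lines and 22 with PKO-1 alone. For rho0 against TM6 it was 34 with 4 lines and 41 when only these groups were fitted. A log2 fold change above 1 left 3, 1, 3 and 1 members in the 4 comparisons in the order above, and the adjusted p alone gave 17 between the clones. The cause was not tested. Of 982 alternative values of 45 single tests, 857 kept their call, 125 lost it and 0 changed direction. In 18 same-numbered pairs of libraries from different lines the deviations from the line means correlated at -0.385 to 0.250, with 10 over 0.1. Pairs with different numbers reached 0.490 (rho0 replicate 1 with PKO-6 replicate 2), so the correlations do not show that libraries pair by number. TM6 and PKO-6 were the lines in which all 3 same-numbered pairs were over 0.1 (0.209 to 0.250). Fitted alone, they gave 2 members higher and 23 lower in PKO-6 without a replicate block and 4 and 26 with it, a fit added after seeing the data. With a replicate block the counts in the 4 comparisons were 16, 3, 7 and 12, and depth limits the 4 members with under 100 counts.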
